A study of Mus musculus with 8 samples.

Results

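Macrophages and monocytes in mouse skin were followed through 33 genes that these cells use, from the growth factor receptor Csf1r and the surface marker Adgre1 to lysozymes, Fc receptors and uptake receptors. The genes were taken from a named list, and each was read from the probe set whose annotation gives that symbol alone. All 33 were measured, each by 1 probe set, among 19935 genes with a probe set of their own. RNA of 4 wild-type and 4 Adam10 knockout skin samples of mouse was hybridised to Affymetrix Mouse Gene 1.0 arrays, 1 array per sample. The wild-type arrays are called 1 to 4 and the knockout arrays 1 to 4 in the order of deposit. Knockout titles read cKO, which usually stands for conditional knockout. The sources used here give no Cre driver, deleted exons, strain or age of the mice, and leave unclear whether whole skin or primary cells of skin were taken. Each title also holds a P followed by a number: 57, 58, 59 and 60 for wild-type arrays 1 to 4, and 67, 68, 69 and 55 for knockout arrays 1 to 4. Whether this counts animals, days of age or something else is not explained, no number is shared by both genotypes, and its part in the results was not tested. The sources also do not say that each sample came from a separate mouse, so p-values measure the spread between these samples, which may be technical.

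Tissue macrophages and monocytes are phagocytes of the innate immune system. Their survival depends on the receptor Csf1r, which binds Csf1 and Il34, and many of their genes are switched on by the transcription factor PU.1, the product of Spi1. In skin, macrophages lie mainly in the dermis, whereas the epidermis holds Langerhans cells, which also depend on Csf1r and on Il34 made by keratinocytes. Several of the 33 genes are not limited to macrophages: Ptprc, Cd53 and Laptm5 are expressed by most white blood cells, and Sirpa, Lgmn and Mertk also by other cells. Adam10 is a membrane protease that sheds surface proteins and cleaves Notch receptors.

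Adam10 itself read 7.06 to 7.39 on the log2 scale in wild type and 6.79 to 7.04 in knockout. The groups did not overlap, and the difference of -0.36 (SE 0.11, n = 4 per group) did not pass the threshold of 0.05 on the adjusted p (0.064, limma with Benjamini-Hochberg adjustment over all 19935 genes). All values below are log2 intensities, and a difference is knockout minus wild type. Keratinocyte genes were among the brightest of all, with Krt5, Krt14, Krt1 and Krt10 at the 99.9th percentile of genes or higher. Wild-type array 4 stood apart from the other 7 on the first principal component (61.18 against -24.91 to 17.52), and wild-type arrays 3 and 4 carried more signal of muscle and fibroblast genes, described further on. Each result is therefore given against all 4 wild-type arrays and against wild-type arrays 1 and 2 alone. Both comparisons share the 4 knockout arrays and those 2 wild-type arrays, so the second does not stand as independent support of the first.

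The macrophage and monocyte genes were lower in knockout skin as a group. Against 4 wild-type arrays 15 of the 33 fell and 0 rose at an adjusted p below 0.05, where 2.34% of all genes tested fell and 6.41% rose (8.75% in either direction). The median difference of the 33 genes was -0.69, with a range from -2.42 for Lyz2 to 0.31 for Mertk, beside a median of 0.0027 over all genes. Centring each array on its median moved that median of all genes to 0.10 and turned 467 falls and 1277 rises over all genes into 286 and 2453, while 13 of the 33 still fell and 0 rose. In 18 of the 33 every knockout array lay below every wild-type array, which held for 5.86% of all genes, and 0 genes lay wholly above (12.2% of all genes). Differences were below 0 in 31 of the 33 genes. Because skin was measured in bulk, fewer cells of a type and less RNA per cell cannot be told apart.

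Against wild-type arrays 1 and 2 a similar number of genes fell. Here 14 of the 33 fell and 0 rose, beside 1.68% and 2.96% of all genes (4.64% in either direction), and the median difference was -0.54 beside 0.0081. All knockout arrays lay below both wild-type arrays in 20 genes (11.7% of all genes) and above both in 1, Mertk (18.1% of all genes). In all, 13 genes fell in both comparisons. Fcgr3 and Cd33 passed only against 4 wild-type arrays, F13a1 passed only against arrays 1 and 2, and 17 genes passed in neither. Leaving out 1 array moved these counts: against 4 wild-type arrays they were 10, 7 and 9 without knockout array 1, 2 and 3 and 13 to 17 without any other array. In the other comparison they were 8, 5 and 5 without knockout array 1, 2 and 3, and 15 without knockout array 4. Leaving out wild-type array 1 or 2 there gave a count of 1 each, but then 1 wild-type array remains, which is assumed to vary as the knockouts do, so these fits say nothing about how stable a gene's call is. Scaling moved calls as well. Against 4 wild-type arrays Fcgr3, Cybb and Cd33 did not pass after quantile normalization (12 falls), Cybb and Cd33 after median centring (13) and Fcgr3 after cyclic loess (14). Against wild-type arrays 1 and 2 Lyz1 and F13a1 did not pass under any of the 3 (12, 9 and 12 falls), nor Tyrobp, Stab1 and Ctss after median centring.

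**Figure D1:**
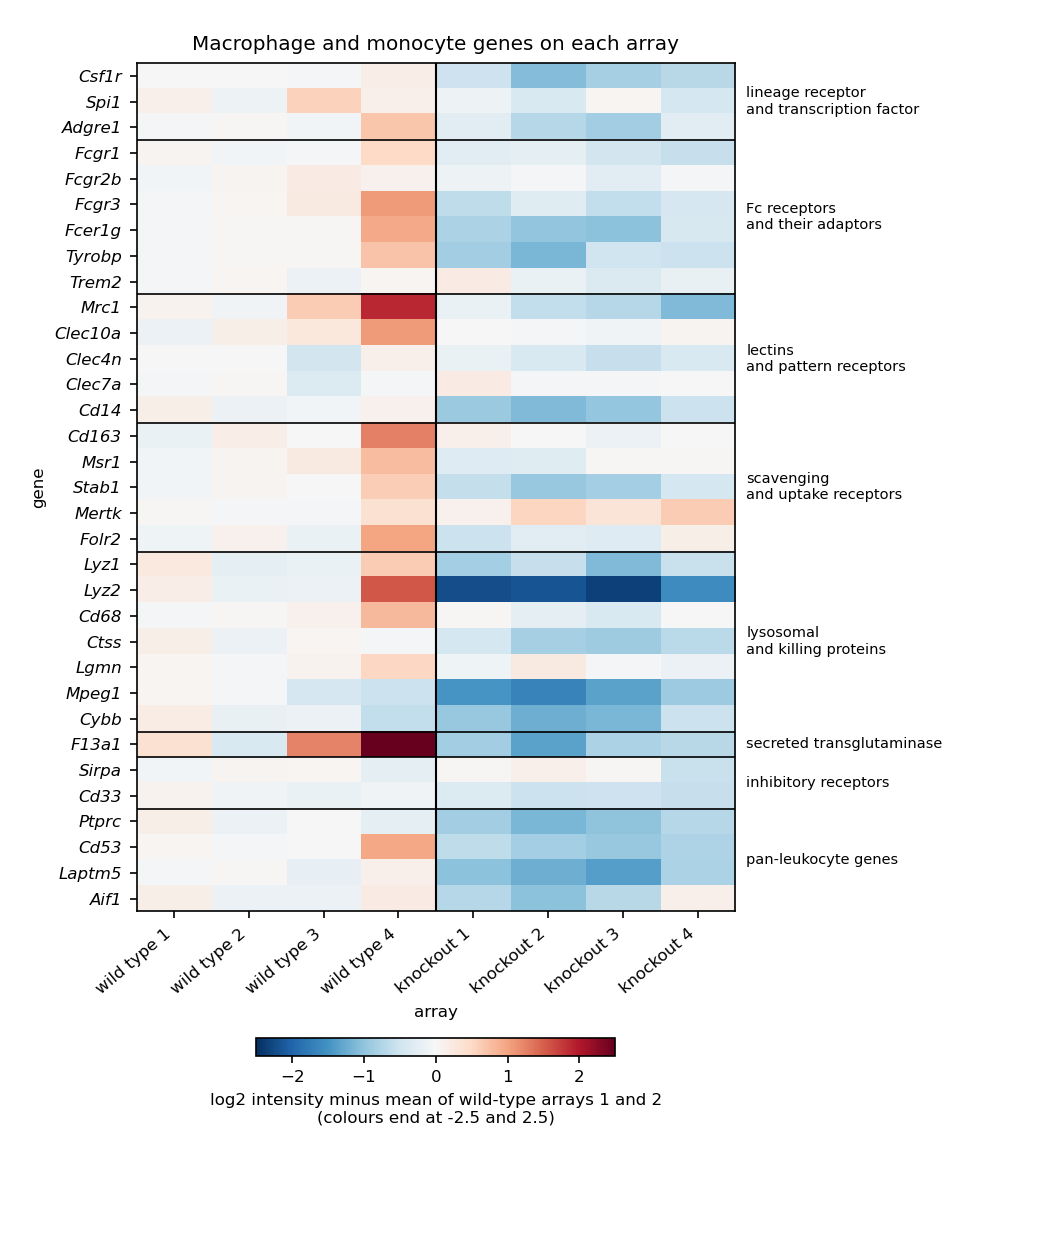
Log2 intensity of each of the 33 genes (vertical) on each of the 8 arrays (horizontal) minus the mean of wild-type arrays 1 and 2, as colour. Most genes are below 0 on all 4 knockout arrays, wild-type array 4 is the highest of all 8 arrays for 21 genes, and Mertk runs the other way.

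**Figure D2:**
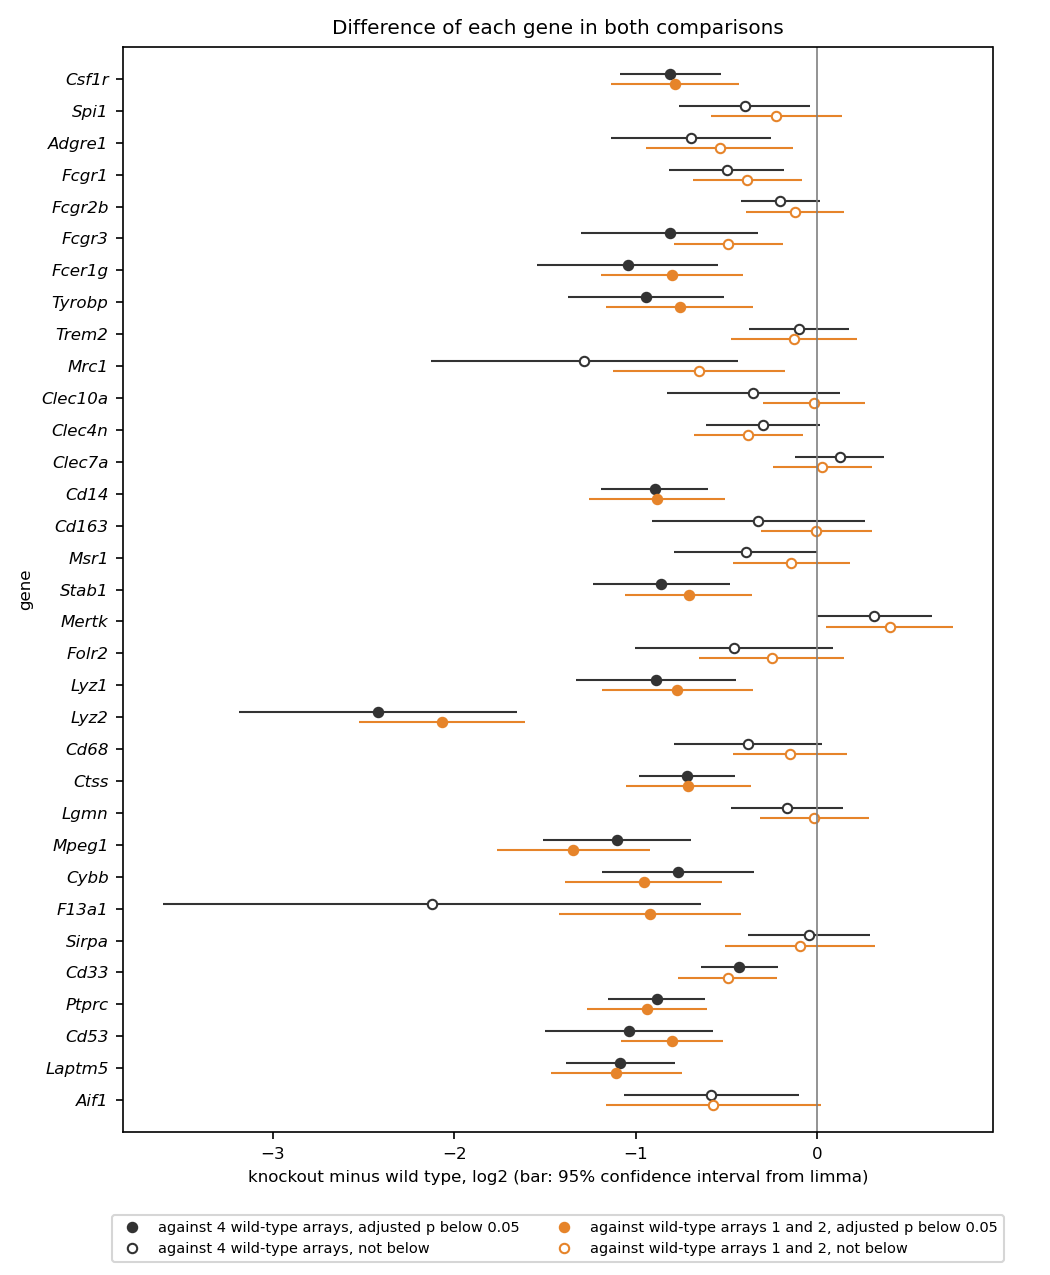
Difference of each gene on the log2 scale (knockout minus wild type), with its 95% confidence interval from limma, against 4 wild-type arrays and against wild-type arrays 1 and 2. Filled points passed an adjusted p of 0.05, which 15 and 14 genes did, each below 0.

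Upstream sequence of 24 of the 33 genes was at hand from RefSeq (GRCm38.p6), as windows from 250 bases before to 50 bases after the annotated start. The windows were searched for the purine-rich word GAGGAA, the core that PU.1 is known to bind, on both strands, so TTCCTC counts as well. It was present in 15 of the 24 windowed genes (62.5%), against 8446 of 27025 genes in the whole table (31.3%) and 30.2% of the 15612 genes that are also on the array. Within the 100 bases before the start it was present in 10 of 24 (41.7%), against 11.2% of all genes. Of the windowed genes that fell in either comparison 9 of 13 had it in the whole window and 5 of 13 in those 100 bases, and of those that fell in neither 6 of 11 and 5 of 11. A match describes letters and is not a binding site. The 250 bases before the start are printed for 5 genes that fell in both comparisons and hold the word, and then for the lysozyme pair, where these letters are not in the window. Capitals mark the word, and each sequence runs 5′ to 3′ on the gene's strand. The first is Laptm5 (chr4:130913066-130913315, forward strand), with the word starting 38 bases before the start, on the opposite strand.
Laptm5: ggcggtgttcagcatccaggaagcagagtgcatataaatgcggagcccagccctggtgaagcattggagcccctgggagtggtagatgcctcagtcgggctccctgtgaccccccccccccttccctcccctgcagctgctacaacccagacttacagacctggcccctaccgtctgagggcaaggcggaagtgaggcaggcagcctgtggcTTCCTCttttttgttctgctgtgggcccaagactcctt
Next is Cd53 (chr3:106790150-106790399, reverse strand), with the word 39 bases before the start.
Cd53: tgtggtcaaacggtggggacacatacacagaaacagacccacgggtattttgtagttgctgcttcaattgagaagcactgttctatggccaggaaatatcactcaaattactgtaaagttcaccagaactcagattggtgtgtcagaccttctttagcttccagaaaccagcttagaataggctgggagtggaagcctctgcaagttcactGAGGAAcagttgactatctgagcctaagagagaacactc
Stab1 (chr14:31168642-31168891, reverse strand) has it 30 bases before the start.
Stab1: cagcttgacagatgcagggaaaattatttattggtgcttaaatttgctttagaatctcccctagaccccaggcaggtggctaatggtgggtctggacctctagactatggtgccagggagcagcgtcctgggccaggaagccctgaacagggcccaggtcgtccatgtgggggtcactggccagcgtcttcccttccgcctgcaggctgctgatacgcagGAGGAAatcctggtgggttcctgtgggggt
Ctss (chr3:95526536-95526785, forward strand) has it 164 bases before the start.
Ctss: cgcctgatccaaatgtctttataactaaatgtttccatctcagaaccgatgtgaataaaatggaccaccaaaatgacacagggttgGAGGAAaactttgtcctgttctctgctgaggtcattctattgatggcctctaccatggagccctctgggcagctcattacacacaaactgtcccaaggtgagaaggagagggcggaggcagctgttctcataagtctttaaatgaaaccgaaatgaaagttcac
Ptprc (chr1:138175306-138175555, reverse strand, the first of 2 annotated windows) has it 158 bases before the start.
Ptprc: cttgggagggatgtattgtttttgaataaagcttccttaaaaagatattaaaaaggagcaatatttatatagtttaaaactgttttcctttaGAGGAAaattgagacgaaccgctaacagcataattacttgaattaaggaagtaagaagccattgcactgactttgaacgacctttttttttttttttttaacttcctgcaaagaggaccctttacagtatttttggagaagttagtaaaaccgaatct
Lyz2 (chr10:117282273-117282522, reverse strand) and Lyz1 (chr10:117292869-117293118, reverse strand) are neighbours with 0 protein-coding genes between them.
Lyz2: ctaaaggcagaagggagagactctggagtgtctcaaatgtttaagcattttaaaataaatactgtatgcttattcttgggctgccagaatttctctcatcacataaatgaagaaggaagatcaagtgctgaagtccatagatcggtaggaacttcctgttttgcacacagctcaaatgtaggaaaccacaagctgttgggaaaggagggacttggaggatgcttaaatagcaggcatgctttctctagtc
Lyz1: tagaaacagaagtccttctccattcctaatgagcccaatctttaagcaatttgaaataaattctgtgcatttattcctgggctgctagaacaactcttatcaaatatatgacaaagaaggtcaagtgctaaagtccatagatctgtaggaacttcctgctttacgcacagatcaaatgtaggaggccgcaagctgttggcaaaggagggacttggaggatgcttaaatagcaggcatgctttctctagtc
Of 240 aligned bases of these last sequences 205 were identical (85.4%).

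**Figure D3:**
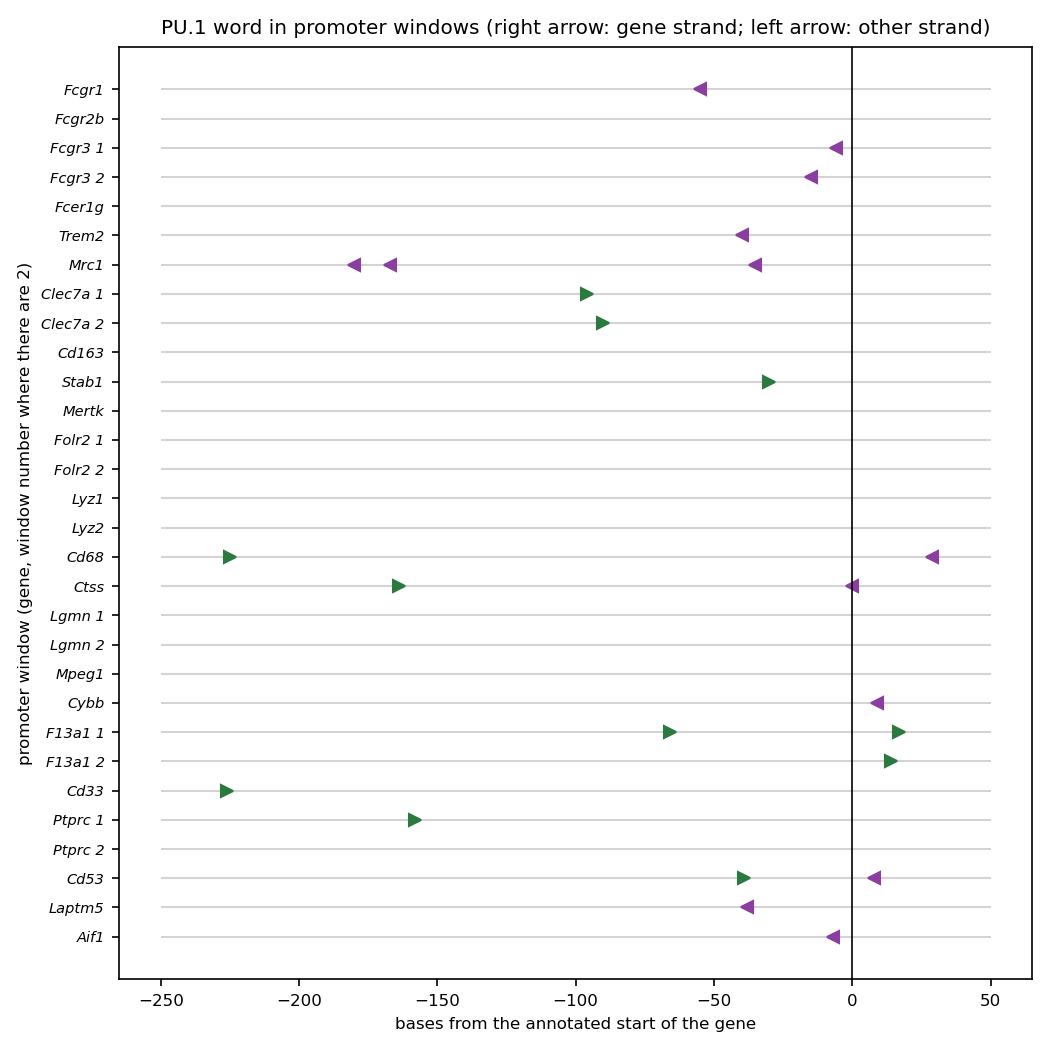
Positions of the word GAGGAA in the promoter windows of the genes that hold it, in bases from the annotated start, with the arrow giving the strand. In 10 of the 24 genes with a window a word lies within the 100 bases before the start.

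Among the lineage genes, Csf1r fell and Adgre1 and Spi1 did not pass. Csf1r, the receptor for Csf1 and Il34, read 5.97, 5.94, 5.91 and 6.11 on wild-type arrays 1 to 4 and 5.44, 4.87, 5.13 and 5.27 on knockout arrays 1 to 4. Every knockout array was below every wild-type array, and wild type varied little. The difference was -0.81 (SE 0.13, adjusted p = 0.0055), or 1.75-fold lower, and -0.78 (SE 0.16, adjusted p = 0.025) against wild-type arrays 1 and 2. Adgre1, which encodes the macrophage marker F4/80, read 4.29, 4.34, 4.24 and 5.02 in wild type and 4.03, 3.60, 3.44 and 4.04 in knockout. Its groups did not overlap, but wild-type array 4 was far above the other 3 wild types, and the difference of -0.69 (SE 0.20) missed the threshold (adjusted p = 0.057). Spi1 read 3.52 to 4.23 in wild type and 3.21 to 3.71 in knockout, which overlap, with a difference of -0.40 (adjusted p = 0.16). The differences of Adgre1 and Spi1 were -0.54 and -0.225 against wild-type arrays 1 and 2 (adjusted p 0.13 and 0.49).

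Of the 6 Fc receptor and adaptor genes, 3 fell against 4 wild-type arrays and 2 against wild-type arrays 1 and 2. Both adaptors that carry activating signals from such receptors were among them. Fcer1g, the common gamma chain of activating Fc receptors, read 5.21, 5.29, 5.28 and 6.20 in wild type and 4.46, 4.26, 4.23 and 4.85 in knockout. Tyrobp, the adaptor of Trem2 and related receptors, read 5.29, 5.36, 5.36 and 6.03 in wild type and 4.46, 4.19, 4.83 and 4.79 in knockout. In both genes wild-type arrays 1 to 3 lay close together, wild-type array 4 stood above them, and no knockout array reached the wild types. Fcer1g differed by -1.04 (SE 0.22, adjusted p = 0.021) and Tyrobp by -0.94 (SE 0.19, adjusted p = 0.017). The differences were -0.80 (SE 0.18, adjusted p = 0.034) and -0.76 (SE 0.18, adjusted p = 0.046) against wild-type arrays 1 and 2.

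Fcgr3, a low-affinity activating receptor for IgG, read 3.70, 3.81, 3.97 and 4.82 in wild type and 3.11, 3.45, 3.14 and 3.33 in knockout. The groups did not overlap, and wild-type array 4 was again the highest. It was lower by a log2 difference of -0.81 (SE 0.22, adjusted p = 0.047), and the difference was -0.49 (SE 0.13, adjusted p = 0.072) against wild-type arrays 1 and 2. Fcgr1, the high-affinity IgG receptor, also had no overlap, with 3.69 to 4.25 in wild type and 3.17 to 3.51 in knockout, and a difference of -0.50 (adjusted p = 0.057). Fcgr2b, the inhibitory IgG receptor, differed by -0.20 (95% confidence interval -0.42 to 0.02, adjusted p = 0.23). Fcgr2b and Fcgr3 lie near each other, with Fcgr4 between them, and are alike in sequence, so signal may be shared between their probe sets. Trem2, a lipid receptor that signals through Tyrobp, differed by -0.10 (95% confidence interval -0.38 to 0.17), unlike its adaptor, though that difference between genes was not tested. Fcgr1, Fcgr2b and Trem2 differed by -0.39, -0.12 and -0.13 against wild-type arrays 1 and 2, and none passed. The call of Fcgr3 was lost on leaving out wild-type array 2 or 3 or any 1 knockout array (adjusted p up to 0.12), that of Fcer1g without knockout array 1, 2 or 3 (up to 0.076), and that of Tyrobp without knockout array 1 or 2 (up to 0.059).

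Cd14 was the member of the lectin and pattern receptor genes that fell, 1 of 5 in both comparisons. It encodes the co-receptor for bacterial lipopolysaccharide and read 4.34, 4.05, 4.13 and 4.30 in wild type against 3.27, 3.09, 3.23 and 3.65 in knockout. The groups were well apart, and wild-type array 4 was not unusual. The difference was -0.90 (SE 0.13, adjusted p = 0.0046), or 1.86-fold lower, and -0.88 (SE 0.17, adjusted p = 0.02) against wild-type arrays 1 and 2. Mrc1, the mannose receptor of dermal macrophages, read 3.74, 3.58, 4.29 and 5.56 in wild type and 3.49, 3.04, 2.95 and 2.57 in knockout. Its groups did not overlap, but the wild types spread widely, and the difference of -1.28 (SE 0.38) did not pass (adjusted p = 0.064, and 0.032 without wild-type array 4). It was -0.65 (adjusted p = 0.12) against wild-type arrays 1 and 2. The lectins Clec10a, Clec4n and Clec7a had mean values below the 25th percentile of genes, where a difference is hard to see. They differed by -0.35, -0.30 and 0.12, with adjusted p of 0.33, 0.22 and 0.52. These differences were -0.02, -0.38 and 0.03 against wild-type arrays 1 and 2, and none passed.

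Among the 5 scavenging and uptake receptors Stab1 fell in both comparisons and the others did not pass. Stab1, an endocytic receptor of macrophages and of some endothelium, read 4.94, 5.06, 4.98 and 5.62 in wild type and 4.40, 4.06, 4.15 and 4.57 in knockout. No knockout array reached the wild types. The difference was -0.86 (SE 0.17, adjusted p = 0.014), with 0.058 when knockout array 2 was left out, and -0.71 (SE 0.16, adjusted p = 0.035) against wild-type arrays 1 and 2. Mertk, which takes up apoptotic cells, read 4.53, 4.46, 4.45 and 4.88 in wild type and 4.59, 5.03, 4.82 and 5.12 in knockout. It was the member with the highest difference, 0.31 (95% confidence interval -0.002 to 0.63, adjusted p = 0.20), and it did not pass against wild-type arrays 1 and 2 either (0.40, adjusted p = 0.19). Cd163, the haemoglobin scavenger receptor, and Msr1, scavenger receptor A, were dim genes below the 25th percentile, with differences of -0.32 and -0.39 that did not pass (adjusted p 0.48 and 0.20). Folr2, a folate receptor of resident macrophages, differed by -0.46 (adjusted p = 0.27). In these 3 genes wild-type array 4 was above the mean of the other wild types by 1.27, 0.70 and 1.04. Their differences were -0.006, -0.14 and -0.25 against wild-type arrays 1 and 2, where none passed.

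Of the 7 lysosomal and killing genes 5 fell in each comparison, and Lyz2 had the largest called difference of the 33 genes in both. Lyz2, which encodes the lysozyme of macrophages and granulocytes, read 5.62, 5.29, 5.32 and 7.00 in wild type and 3.24, 3.30, 3.12 and 3.89 in knockout. Even the highest knockout array was well below the lowest wild type. The difference was -2.42 (SE 0.34, adjusted p = 0.0042), or 5.34-fold lower, and -2.07 (SE 0.21, adjusted p = 0.0021), or 4.19-fold lower, against wild-type arrays 1 and 2. Lyz1, its neighbour and close copy, which in mouse is mainly a lysozyme of Paneth cells, read 3.69, 3.21, 3.29 and 4.08 in wild type and 2.60, 2.88, 2.35 and 2.89 in knockout. It fell by 0.89 (SE 0.20, adjusted p = 0.023), and by 0.77 (SE 0.19, adjusted p = 0.048) against wild-type arrays 1 and 2. As the genes are so alike, signal of Lyz2 may reach the Lyz1 probe set, and how much was not tested. The Lyz1 call was lost without knockout array 1, 2 or 3 (adjusted p up to 0.067).

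**Figure D4:**
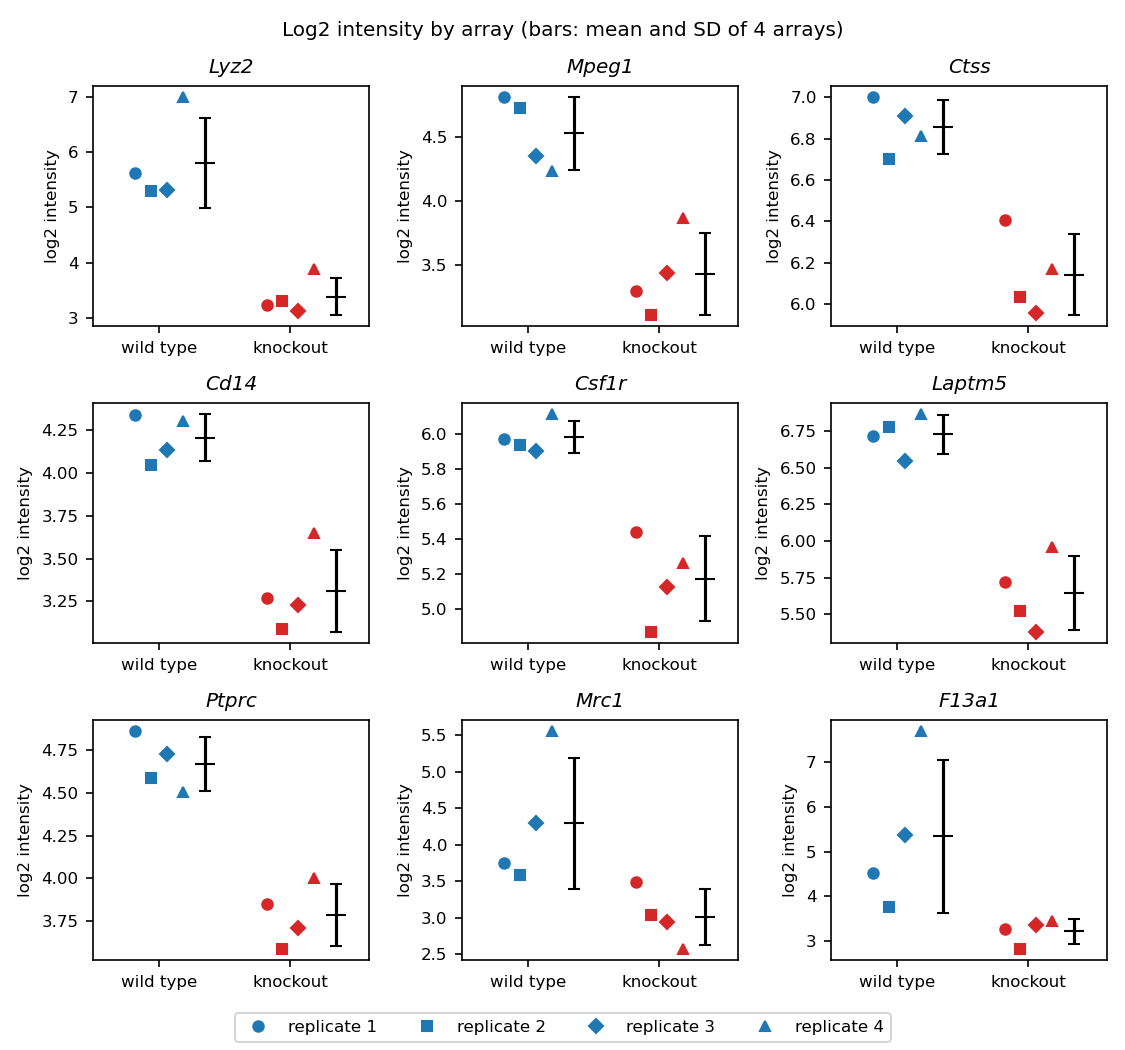
Log2 intensity by array for Lyz2, Mpeg1, Ctss, Cd14, Csf1r, Laptm5, Ptprc, Mrc1 and F13a1, with points for the 4 wild-type and 4 knockout arrays and bars for the mean and SD. Lyz2 shows the widest gap, 5.29 to 7.00 against 3.12 to 3.89.

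Mpeg1, a pore-forming protein of phagocyte vacuoles, read 4.81, 4.73, 4.35 and 4.23 in wild type and 3.29, 3.11, 3.44 and 3.87 in knockout. Here wild-type array 4 was the lowest wild type, the reverse of Lyz2, and still no knockout array reached it. The difference was -1.10 (SE 0.18, adjusted p = 0.0071) and -1.34 (SE 0.19, adjusted p = 0.0072) against wild-type arrays 1 and 2. Ctss, the cathepsin that trims the invariant chain of class II molecules, read 7.00, 6.70, 6.91 and 6.81 in wild type and 6.40, 6.03, 5.96 and 6.17 in knockout, with no overlap. It fell by 0.72 (SE 0.12, adjusted p = 0.0072) and by 0.71 (SE 0.15, adjusted p = 0.033). Cybb, the membrane subunit of the phagocyte NADPH oxidase, read 5.26, 4.90, 4.94 and 4.46 in wild type and 4.13, 3.87, 3.95 and 4.54 in knockout. It was the 1 of the 15 falling genes whose groups overlapped, since knockout array 4 was above wild-type array 4. The difference was -0.77 (SE 0.19, adjusted p = 0.033), lost without any 1 of wild-type arrays 1 to 3 or knockout arrays 1 to 3 (adjusted p up to 0.11), and -0.96 (SE 0.19, adjusted p = 0.025) against wild-type arrays 1 and 2. Cd68, a glycoprotein of phagocyte lysosomes, and Lgmn, a lysosomal protease, did not pass, with differences of -0.38 and -0.17 against 4 wild-type arrays (adjusted p 0.23 and 0.49) and -0.15 and -0.02 against 2 (0.61 and 0.96).

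F13a1, a transglutaminase subunit made by dermal macrophages and monocytes, had the most uneven wild types. It read 4.51, 3.77, 5.38 and 7.70 in wild type and 3.27, 2.81, 3.35 and 3.44 in knockout. No knockout array overlapped with wild type. The difference was -2.12 (SE 0.67, adjusted p = 0.077), and leaving out wild-type array 4 or 2 brought the adjusted p to 0.022 and 0.045. It fell by 0.92 (SE 0.22, adjusted p = 0.049) against wild-type arrays 1 and 2. That call was lost in 11 of 17 alternatives, among them all 3 scalings (adjusted p 0.06 to 0.092) and the fits without knockout array 1, 2 or 3 (0.092, 0.12 and 0.087). The difference was -0.55 with wild-type array 2 as the 1 wild type and -1.29 with wild-type array 1.

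Cd33 and Sirpa were listed together as inhibitory receptors, a role that was not examined here for mouse Cd33. Cd33, a sialic acid-binding receptor of myeloid cells, read 4.55, 4.39, 4.30 and 4.38 in wild type and 4.12, 3.93, 3.96 and 3.89 in knockout. The groups did not overlap and varied little within. It fell by 0.43 (SE 0.10, adjusted p = 0.024), a call lost without wild-type array 2 or knockout array 2 or 3 (adjusted p up to 0.083), and the difference against wild-type arrays 1 and 2 was -0.49 (SE 0.12, adjusted p = 0.051). Sirpa, the receptor for the CD47 signal that restrains phagocytosis, read 6.85 to 7.15 in wild type and 7.11, 7.20, 7.12 and 6.53 in knockout. Knockout array 4 was the lowest of the 8 arrays and the other knockouts lay among the wild types or above. The difference was -0.05 (95% confidence interval -0.38 to 0.29), and 0.11 without knockout array 4. It was -0.09 against wild-type arrays 1 and 2.

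Of the 4 pan-leukocyte genes 3 fell in both comparisons. Ptprc, which encodes CD45, read 4.86, 4.59, 4.73 and 4.51 in wild type and 3.85, 3.58, 3.71 and 4.00 in knockout. Laptm5, a lysosomal membrane protein of blood cells, read 6.72, 6.78, 6.55 and 6.87 in wild type and 5.72, 5.52, 5.37 and 5.96 in knockout. In both genes the wild types were close together and the knockouts lay wholly below them. Ptprc differed by -0.88 (SE 0.12, adjusted p = 0.0035) and Laptm5 by -1.09 (SE 0.14, adjusted p = 0.0025), the smallest adjusted p of the 33. They differed by -0.94 (SE 0.15, adjusted p = 0.0098) and -1.11 (SE 0.16, adjusted p = 0.0087) against wild-type arrays 1 and 2. Cd53, a tetraspanin of blood cells, read 4.91, 4.80, 4.84 and 5.82 in wild type and 4.22, 4.01, 3.91 and 4.09 in knockout, with wild-type array 4 high and no overlap. It fell by 1.04 (SE 0.21, adjusted p = 0.015; 0.058 and 0.051 without knockout array 2 and 3) and by 0.80 (SE 0.13, adjusted p = 0.0098). Aif1, the cytoplasmic marker IBA1, read 3.77, 3.47, 3.47 and 3.82 in wild type and 2.91, 2.60, 2.93 and 3.75 in knockout. Knockout array 4 lay among the wild types and the other knockouts below them. The difference of -0.58 did not pass (adjusted p = 0.13, and 0.010 without knockout array 4). It was -0.57 (adjusted p = 0.27) against wild-type arrays 1 and 2.

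Over the 33 genes wild-type array 4 was the highest of the wild types in 22, the lowest in 4, and at least 0.5 above the mean of wild-type arrays 1 to 3 in 16. Knockout array 4 was the highest knockout in 16 and the lowest in 6. With any 1 array left out, 7 of the 15 genes kept their call against 4 wild-type arrays: Csf1r, Cd14, Lyz2, Ctss, Mpeg1, Ptprc and Laptm5. These are genes in which wild-type array 4 was within 0.5 of the mean of the other wild types, apart from Lyz2, where it was 1.59 above. Against wild-type arrays 1 and 2, Lyz2, Mpeg1, Ptprc, Cd53 and Laptm5 kept their call without any 1 knockout array. Csf1r and Ctss lost theirs there without knockout array 2 or 3. Cd14, Fcer1g, Tyrobp, Stab1, Lyz1, Cybb and F13a1 lost theirs without knockout array 1, 2 or 3.

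Other genes of the same cells were read from 6 further lists. Beside the counts in these and in the marker lists below, 2.34% of all genes tested fell and 6.41% rose against 4 wild-type arrays. For wild-type arrays 1 and 2 these shares were 1.68% and 2.96%. Among 22 other genes of resident macrophages 7 fell and 2 rose (6 and 1 against wild-type arrays 1 and 2). Ms4a4a, a tetraspan of tissue macrophages, read 5.76, 5.49, 5.95 and 6.36 in wild type and 4.15, 3.99, 3.70 and 4.01 in knockout. It differed by -1.93 (adjusted p = 0.00077), Ms4a6c of the same family by -1.77 (0.0041), and C1qa, a chain of complement C1q, by -1.04 (0.0046), and all 3 fell against wild-type arrays 1 and 2 as well. Whether signal is shared between probe sets of the Ms4a family was not tested. Ctsl, a lysosomal cathepsin that keratinocytes also make, rose by 0.60 (adjusted p = 0.0096). Gas6, the ligand of Mertk, rose by 0.51 (adjusted p = 0.018, with 0.052 without wild-type array 3) and did not pass against wild-type arrays 1 and 2 (0.07).

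The growth factors and their receptors included 2 falls and 0 rises among 8 (1 and 0). Il34, the second ligand of Csf1r and a product of keratinocytes, read 7.32, 7.28, 7.45 and 7.05 in wild type and 6.12, 6.31, 6.01 and 6.29 in knockout. No knockout array came near the wild types, and wild-type array 4 was the lowest of them. The difference was -1.09 (SE 0.12, adjusted p = 0.0013), or 2.13-fold lower, and -1.11 (SE 0.13, adjusted p = 0.0032) against wild-type arrays 1 and 2. Csf1 itself differed by -0.27 (adjusted p = 0.31). Csf2rb2, a receptor chain for Il3 and a near copy of Csf2rb, fell by 0.70 (adjusted p = 0.048), a call lost without wild-type array 2 or 3 or any 1 knockout array (up to 0.13).

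In 14 measured monocyte and recruitment genes 1 fell and 0 rose, and against wild-type arrays 1 and 2 neither direction had a call. The fall was that of Cx3cr1, a chemokine receptor of monocytes and resident phagocytes, by 0.68 (adjusted p = 0.016, 0.054 without wild-type array 3, and 0.088 against wild-type arrays 1 and 2). Ccr2, the receptor of recruited monocytes, was dim (8.78th percentile of genes), where a change is hard to detect. Of 16 activation genes Tlr2, a receptor for bacterial lipoproteins, fell by 0.65 (adjusted p = 0.0088), and Ptgs2, the inducible prostaglandin synthase, rose by 0.70 (adjusted p = 0.0087). Both passed against wild-type arrays 1 and 2, Tlr2 not without knockout array 1, 2 or 3 (adjusted p 0.074, 0.095 and 0.09) and Ptgs2 not without knockout array 1 or 3 (0.083 and 0.085). Of 12 oxidase and signalling partners, 2 fell and 0 rose (1 and 0). These were Inpp5d, an inositol phosphatase of blood cells, by 0.52 (adjusted p = 0.010), and Ncf1, a cytosolic oxidase subunit that acts with Cybb, by 0.54 (adjusted p = 0.021), a call lost without wild-type array 2 or 3 or knockout array 2 or 3 (up to 0.073). Of 14 transcription factors Irf5 rose by 0.45 (adjusted p = 0.026), lost without wild-type array 2 or knockout array 1, 2 or 3 (up to 0.074), and 0 fell.

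Markers of other cells in the same skin moved in different ways. T and NK cell markers had 0 of 10 genes called in either direction in either comparison, with 0 at an unadjusted p below 0.05 in each and medians of -0.05 and -0.08. The 5 measured B cell and 10 neutrophil markers likewise had 0 calls, with 0 and 1 at an unadjusted p below 0.05 against 4 wild-type arrays and 0 and 3 against 2. Of all 19935 genes tested by limma, 5008 and 3944 had an unadjusted p below 0.05 in these comparisons. The B cell and neutrophil lists were dim, where a change is hard to detect. Summed over all genes of the list, B cell markers reached a log2 level of 4.75 to 5.03 in wild type and 4.53 to 4.92 in knockout. For neutrophil markers this was 6.03 to 6.34 and 5.74 to 6.07. Of 13 Langerhans and dendritic cell markers 0 fell and 2 rose, H2-Ab1, a class II chain, by 1.38 (adjusted p = 0.011) and Epcam, which keratinocytes also make, by 0.57 (adjusted p = 0.04, with overlapping groups, and lost without wild-type array 2, 3 or 4 or knockout array 1, 2 or 3, up to 0.11). Against wild-type arrays 1 and 2, 0 of the 13 fell and 1 rose, H2-Ab1 by 1.56 (adjusted p = 0.02), and Epcam did not pass (0.15). The median difference of the list was 0.07 and 0.13 in the 2 comparisons. Its summed log2 level was 8.12 to 8.34 in wild type and 8.45 to 9.15 in knockout. The Langerhans marker Cd207 was dim, at 2.49 to 3.06 in wild type and 2.48 to 3.01 in knockout. Of 8 basal keratinocyte genes 7 rose, among them Itga6 by 1.33, Col17a1 by 1.19 and Itgb4 by 1.24 (adjusted p 0.0034, 0.004 and 0.0048), and 4 rose against wild-type arrays 1 and 2.

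The dermis and muscle lists moved with wild-type arrays 3 and 4. A list's position on an array is the median over its genes of the log2 value minus the mean of all 8 arrays. It was -0.90, -0.62, 1.66 and 3.52 on wild-type arrays 1 to 4 for dermal fibroblast genes, against -1.05 to -0.83 on the knockout arrays. It was -0.76, -0.50, 0.965 and 3.71 for skeletal muscle genes, with -0.94 to -0.57 in knockout. Adipocyte genes stood at 2.61, endothelial genes at 1.80 and mast cell genes at 2.66 on wild-type array 4. For the 33 macrophage and monocyte genes the same measure was 0.22, 0.13, 0.23 and 0.64 in wild type and -0.43 to -0.16 in knockout. Their summed log2 level was 10.13 to 10.74 in wild type and 9.62 to 9.73 in knockout. Mast cell genes also separated the groups by position, at -0.40 to 2.66 in wild type and -0.77 to -0.64 in knockout. By summed level they stood at 7.36 and 7.32 on wild-type arrays 1 and 2, below every knockout array (7.59 to 7.81). That sum holds Kit, which read 6.12 and 6.05 on wild-type arrays 1 and 2 and 6.94 to 7.27 in knockout. Against those 2 wild-type arrays 6 of the 8 mast cell genes had a difference below 0 and 2 above, with a median of -0.31. By position, both the fibroblast and muscle lists put wild-type array 2 above every knockout array. They put wild-type array 1 within the knockout range. The summed level of fibroblast genes was 9.66 and 9.59 for wild-type arrays 1 and 2, below every knockout array (9.995 to 10.11). Against these 2 wild-type arrays, however, 6 of the 7 measured fibroblast genes had a difference below 0, with a median of -0.12. The 1 gene above 0 rose by 0.74 and was called. The summed level of muscle genes was 7.75 and 7.94 on wild-type arrays 1 and 2, against 7.41 to 7.78 in knockout. Mast cell genes had 0 of 8 falls against 4 wild-type arrays, where Kit, which melanocytes also express, rose by 1.09 (adjusted p = 0.001). Against wild-type arrays 1 and 2 Tpsb2 and Hdc fell by 0.52 and 0.55, genes chosen for mention after their values were seen. How far cell makeup enters the result was not tested.

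**Figure D5:**
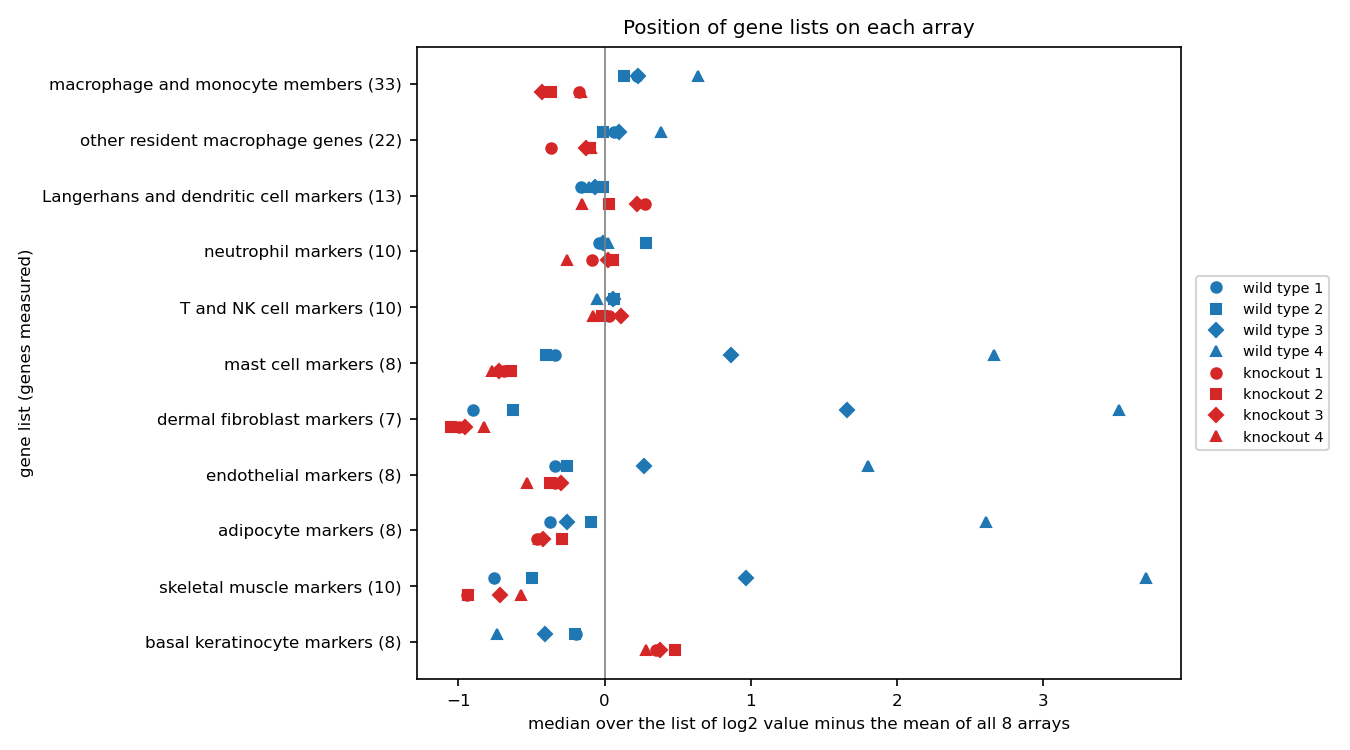
Position of each gene list on each array, as the median over its genes of the log2 value minus the mean of all 8 arrays. The macrophage and monocyte genes separate wild type (0.13 to 0.64) from knockout (-0.43 to -0.16) on every array. By this measure the other resident macrophage and mast cell lists do so too, and the basal keratinocyte list does so in the other direction. The other resident macrophage list stood at -0.01 to 0.38 in wild type and -0.36 to -0.09 in knockout. By summed log2 level its groups overlapped, at 11.50 to 11.85 in wild type and 11.60 to 11.86 in knockout. The fibroblast, muscle, fat, mast cell and endothelial lists stand out on wild-type array 4.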

How the data were processed

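RNA from 4 wild-type and 4 Adam10 knockout skin samples was hybridised, 1 sample to an Affymetrix Mouse Gene 1.0 array. Per the submitters' processing notes, the authors used RMA (robust multi-array average) to obtain the deposited intensities. Its version and settings are not given in the sources here. RMA corrects background, makes arrays alike in distribution and summarises probes. The deposited arrays were not fully alike, with median intensities of 14.15 to 15.12 in wild type and 13.28 to 14.09 in knockout. This offset is in the direction of the falls, and counts under 3 other scalings are given above. The intensities ran from 0.817 to 11173, so they were read as linear, and log2 was taken with no pseudocount. Background correction and scan batches could not be checked from these values. Arrays give no depth, and their number limits the precision.

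Of 35519 probe sets 21780 had 1 gene symbol in the platform annotation, 1605 several and 12134 none. The probe set of highest mean was kept per gene, which left 19935 genes, with no filter on dim ones. All 33 symbols matched RefSeq (GRCm38.p6) through Entrez identifiers. Groups follow the genotype labels. Knockout was compared with 4 wild-type arrays and with wild-type arrays 1 and 2 by limma 3.58.1 in R 4.3.3 (lmFit, eBayes, two-sided), adjusting p by Benjamini-Hochberg over the 19935 genes, with 0.05 as the threshold. All adjusted p-values are from limma. Promoter windows were searched with Python 3.11.15 and aligned with biopython 1.88. Protein sequences were not used here.

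The 33 genes, the further macrophage lists and the marker lists were chosen with earlier results of these data known, so no test over a list was made. All 33 genes are named. From each other list up to 3 falls and 3 rises of smallest p against 4 wild-type arrays are named. Lists with no call in that comparison have no gene named by this rule. Csf1, Ccr2, Cd207, Krt5, Krt14, Krt1 and Krt10 are named outside the rule, and further exceptions are marked where they stand. The alternatives were 3 scalings, 2 filters on dim genes, a pseudocount of 16, all probe sets or their mean, a trended prior, weighted arrays, adjusted p of 0.01 and 0.10, and leaving out each array.

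Both fits were also tested on simulated data, in which 200 of 19935 genes were changed. With 4 wild-type arrays, log2 changes of 0.5 were found in 32% of cases, those of 1 and 2 in 98% each and those of 3 in 100%, and 12 of 176 calls were false. With wild-type arrays 1 and 2 these shares were 26%, 98%, 100% and 100%, and 11 of 173 calls were false. Whether such shares hold for the deposited arrays, where wild-type array 4 stood apart on the first principal component, was not tested.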

Additional observations from a re-analysis of the deposited data

Results flagged for a closer look

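In 10 of 104 groups of 4 arrays tested, 1 array lay far from the other 3, by a gap whose share of the group's range passed Dixon's critical value. Chance alone gives this in about 1 in 20 groups. Among the macrophage and monocyte genes, wild-type array 4 was high in 5. Adgre1 read 5.02 there against 4.24 to 4.34 on the other wild-type arrays, and Fcer1g read 6.20 against 5.21 to 5.29. Tyrobp read 6.03 against 5.29 to 5.36, Cd68 read 6.06 against 5.23 to 5.37, and Cd53 read 5.82 against 4.80 to 4.91. Among the knockouts, Clec7a read 2.73 on array 1 against 2.47 to 2.51, and Sirpa read 6.53 on array 4 against 7.11 to 7.20. Of the other macrophage genes, Gas6 read 8.35 on knockout array 2 against 7.97 to 8.02, Ptgs2 read 4.18 on knockout array 2 against 4.56 to 4.62, and Cx3cr1 read 3.94 on knockout array 4 against 4.24 to 4.31.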

How the results depend on the processing

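Among the 33 genes, 0 that passed changed direction under any alternative, and 0 rose at the threshold under any. Against 4 wild-type arrays the count of falling genes was 15. It was 9 with genes at or above the median only, where 13 of the 33 were measured, 7 at an adjusted p of 0.01, and 10 to 21 under the other settings. Leaving out each array gave 7 (without knockout array 2) to 17 (without wild-type array 4). The median difference of -0.69 was -0.32 on log2 of the value plus 16, a scale that shrinks differences of dim genes, and -0.52 to -0.81 otherwise. Against wild-type arrays 1 and 2 the count of 14 became 9 with median centring, 7 with genes at or above the median (11 measured), 5 at an adjusted p of 0.01 and 12 to 16 under the other settings except 1. With all 35519 probe sets it was 0 by limma, where 2 probe sets passed in all. By the gene-level limma fit 21 of the 33 had an unadjusted p below 0.05, beside 3944 of all 19935 genes tested. Leaving out each array gave 1 to 15, where the value of 1 comes from fits with 1 wild-type array, assumed to vary as the knockouts do. The median difference of -0.54 was -0.68 and -0.71 with the filters at the 25th percentile and at the median, which leave out dim genes, and -0.245 on log2 of the value plus 16. Where not stated, the cause was not tested.

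The values that changed sign belong to 5 genes that passed in neither comparison. Against 4 wild-type arrays Sirpa was 0.054 with median centring and -0.12 to 0.11 on leaving out arrays. Against wild-type arrays 1 and 2, Clec10a was 0.056, 0.066 and 0.040 with quantile normalization, median centring and cyclic loess, and Cd163 was 0.065, 0.079 and 0.051 with these and 0.0063 with array weights. Lgmn was 0.069 with median centring and 0.0053 with array weights. On leaving out arrays Clec10a ran from -0.16 to 0.12, Clec7a from -0.032 to 0.057, Cd163 from -0.18 to 0.17, Lgmn from -0.093 to 0.030 and Sirpa from -0.17 to 0.059. No paired analysis was possible because the labels give no replicate numbers shared between the groups. The number of arrays limits what could be detected, and dim genes most.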

Other observations

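In knockout skin the 3 chains of complement C1q, a product of tissue macrophages, were lower by similar amounts. C1qa differed by -1.04, C1qb by -1.09 and C1qc by -1.17 on the log2 scale against 4 wild-type arrays (limma adjusted p 0.0046, 0.011 and 0.0055), and by -0.96, -0.94 and -1.11 against wild-type arrays 1 and 2 (0.0091, 0.042 and 0.0086). Of the Ms4a family, Ms4a6b differed by -1.68 (adjusted p = 0.008) and Ms4a6d by -0.76 (adjusted p = 0.047), the latter with 0.21 against wild-type arrays 1 and 2. C1qb, C1qc, Ms4a6b and Ms4a6d were chosen for mention after their values were seen.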
